A study of Mus musculus with 24 samples.

Results

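Renin cells and the small arteries they belong to were followed through 6 genes in whole kidneys of mouse embryos in which Wt1 had been deleted at different steps of nephron formation. The genes are Ren1, Akr1b7, Agtr1a, Gja4, Gja5 and Ednra. They were chosen by name, and each has 1 of the 17951 gene rows of the intensity table. All 6 passed the requirement of detection on at least 3 of the 24 arrays, as did 10371 genes in all.

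Total RNA from kidneys at E18.5, embryonic age in days, was hybridised to Illumina MouseRef-8 BeadChips, with 3 biological replicates in each of 8 groups. Nes-Cre Wt1 co/co kidneys are homozygous for a conditional Wt1 allele and carry a Nestin-driven Cre transgene, and their control is the Cre-negative Wt1 co/co kidney, which has the same conditional allele. Wnt4-CreGFP Wt1 co/co kidneys are homozygous for the same allele and carry CreGFP knocked into Wnt4. Pax8-Cre Wt1 co/co kidneys are homozygous for it too, with Cre knocked into Pax8. Their controls, Wnt4-CreGFP and Pax8-Cre, carry that knock-in with no conditional Wt1 allele. Nes-Cre kidneys carry the transgene alone and were set against wild-type kidneys. The mutant and its control, or Nes-Cre and wild type, make up 1 array set of 6 arrays in each case. The groups that have lost Wt1 are called the Nes-Cre mutant, the Wnt4-CreGFP mutant and the Pax8-Cre mutant, and values for the 3 mutants run in this order. Nes-Cre kidneys are those with the transgene alone. By the study's lineage tracing, Nes-Cre acts in the early mesenchyme and its nephron lineage, Pax8-Cre in condensed mesenchyme, nephrons and the ureteric bud, and Wnt4-CreGFP from the pre-tubular aggregates onwards. Nes-Cre activity is incomplete, so that some nephrons escape deletion. The strain is C57BL/6 in the labels and a mixed background in the methods. Wt1 itself was not analysed here. A whole kidney mixes all cell types, so fewer cells of a type and less RNA per cell cannot be told apart.

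Renin cells sit in the wall of the arteriole that feeds the glomerulus, and in the fetal kidney they are also spread along larger arteries. Renin cuts angiotensinogen, and the angiotensin II that follows acts on a receptor encoded by Agtr1a to constrict vessels and to hold back further renin release. Connexins encoded by Gja4 and Gja5 couple renin cells with the endothelium and with each other, and the receptor encoded by Ednra makes smooth muscle contract when endothelin binds.

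Windows of 250 bases before the annotated start of transcription are shown for Ren1, Akr1b7 and Gja5, the renin cell and arteriolar genes whose level was below the control mean in all 3 mutants. They come from RefSeq on the mouse build GRCm38.p6, at chr1:133350424-133350673 on the plus strand for Ren1, chr6:34412112-34412361 on the plus strand for Akr1b7 and chr3:97032152-97032401 on the plus strand for Gja5. Capitals mark 3 searched motifs, which are the TATA box letters TATAAA, the letters TAAATCA from the element of the Ren1 proximal promoter that binds HOX and PBX proteins, and GTGGGNG, letters within the recognition sequence of WT1.
Ren1: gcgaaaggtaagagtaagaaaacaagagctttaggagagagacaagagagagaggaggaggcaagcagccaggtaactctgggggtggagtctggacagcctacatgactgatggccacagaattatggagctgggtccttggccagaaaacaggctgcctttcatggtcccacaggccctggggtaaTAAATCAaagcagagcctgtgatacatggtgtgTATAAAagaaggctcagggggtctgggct
Akr1b7: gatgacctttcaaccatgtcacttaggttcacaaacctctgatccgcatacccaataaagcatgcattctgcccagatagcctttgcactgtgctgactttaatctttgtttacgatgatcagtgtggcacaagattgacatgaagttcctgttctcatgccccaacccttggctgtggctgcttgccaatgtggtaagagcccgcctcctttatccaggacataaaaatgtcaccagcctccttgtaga
Gja5: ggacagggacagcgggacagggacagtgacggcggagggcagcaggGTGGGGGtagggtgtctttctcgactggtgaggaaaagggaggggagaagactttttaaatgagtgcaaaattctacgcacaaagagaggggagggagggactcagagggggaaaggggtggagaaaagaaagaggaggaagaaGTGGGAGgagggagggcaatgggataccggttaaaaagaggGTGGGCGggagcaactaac
Of the 6 genes, 5 have such a window in the RefSeq table and Agtr1a was not matched. TATAAA starts 29 bases and TAAATCA 62 bases before the Ren1 start. GTGGGNG occurs 3 times in the Gja5 window, at 204, 60 and 19 bases before the start. The windows of Akr1b7, Gja4 and Ednra hold none of the 3 motifs. On either strand, TATAAA is found in 12.4%, TAAATCA in 2.61% and GTGGGNG in 28.1% of 32851 windows of the same length, and none of the matches in these windows overlaps another. A match describes letters in the reference and was not tested as a binding site.

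Normalized values are given as log2 intensity, comparable between arrays for 1 gene but not between genes. A gene was called when its adjusted p, taken over all 10371 genes, was under 0.05. With background correction and quantile normalization, the calls split into 1156 higher and 1355 lower in Nes-Cre mutants, 899 and 924 in Wnt4-CreGFP mutants, and 340 and 382 in Pax8-Cre mutants. Scaling each array to its 75th percentile gave 4755 and 1591, 156 and 578, and 176 and 323, and the authors' ratio values gave 255 and 2307, 110 and 1287, and 303 and 282. The median of all genes then moved by 0.22, 0.12 and -0.01 with the percentile, and by -0.19, -0.13 and 0.13 with the ratios.

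The array of Nes-Cre mutant replicate 1 stands apart, and the methods state that a sample of this genotype failed quality control without saying which. On that array 12 of 15 tested kidney epithelium genes were below all 23 other arrays, among them Cdh16 at 7.11 against 12.71 to 13.40, while 19 of 19 smooth muscle, 9 of 9 urothelial and 7 of 7 striated muscle genes were above all others. Myh11, the smooth muscle myosin, reached 13.70 there, against 7.29 to 9.93 elsewhere. Its correlation with the other arrays of its group was 0.909 to 0.912, where other pairs within a group had 0.989 to 0.997. Liver genes were high on replicate 3 of the same group, with Ahsg at 11.19 there, 7.48 on replicate 1 and at most 6.98 on the other arrays. The 6 genes are therefore given for 24 arrays and for 23 arrays without Nes-Cre mutant replicate 1. The arrays of the Nes-Cre and wild-type set had a background of 152 to 181 intensity units, against 48.1 to 69.9 in the other sets, and detected 7458 to 8262 genes, against 8216 to 9681.

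Of the 6 genes, Akr1b7 and Agtr1a fell and Ednra rose in Nes-Cre mutants, with 24 arrays and with 23, where 11.1% of all genes rose and 13.1% fell (24.2% called) and, on 23 arrays, 14.3% and 12.3% (26.7%). In Wnt4-CreGFP mutants Agtr1a and Gja5 fell and Ednra rose with 24 arrays, and Ren1 and Akr1b7 fell as well with 23, where 8.67% of all genes rose and 8.91% fell (17.6% called) and, on 23 arrays, 14.8% and 12.3% (27%). In Pax8-Cre mutants only Gja5 of the 6 genes fell with 24 arrays, and Akr1b7 fell and Ednra rose as well with 23, where 3.28% of all genes rose and 3.68% fell (6.96% called) and, on 23 arrays, 7.19% and 6.26% (13.5%). No member was called in Nes-Cre against wild-type kidneys, where 0.0386% and 0.125% of all genes were called. Gja4 was called in no same-set comparison.

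**Figure D1:**
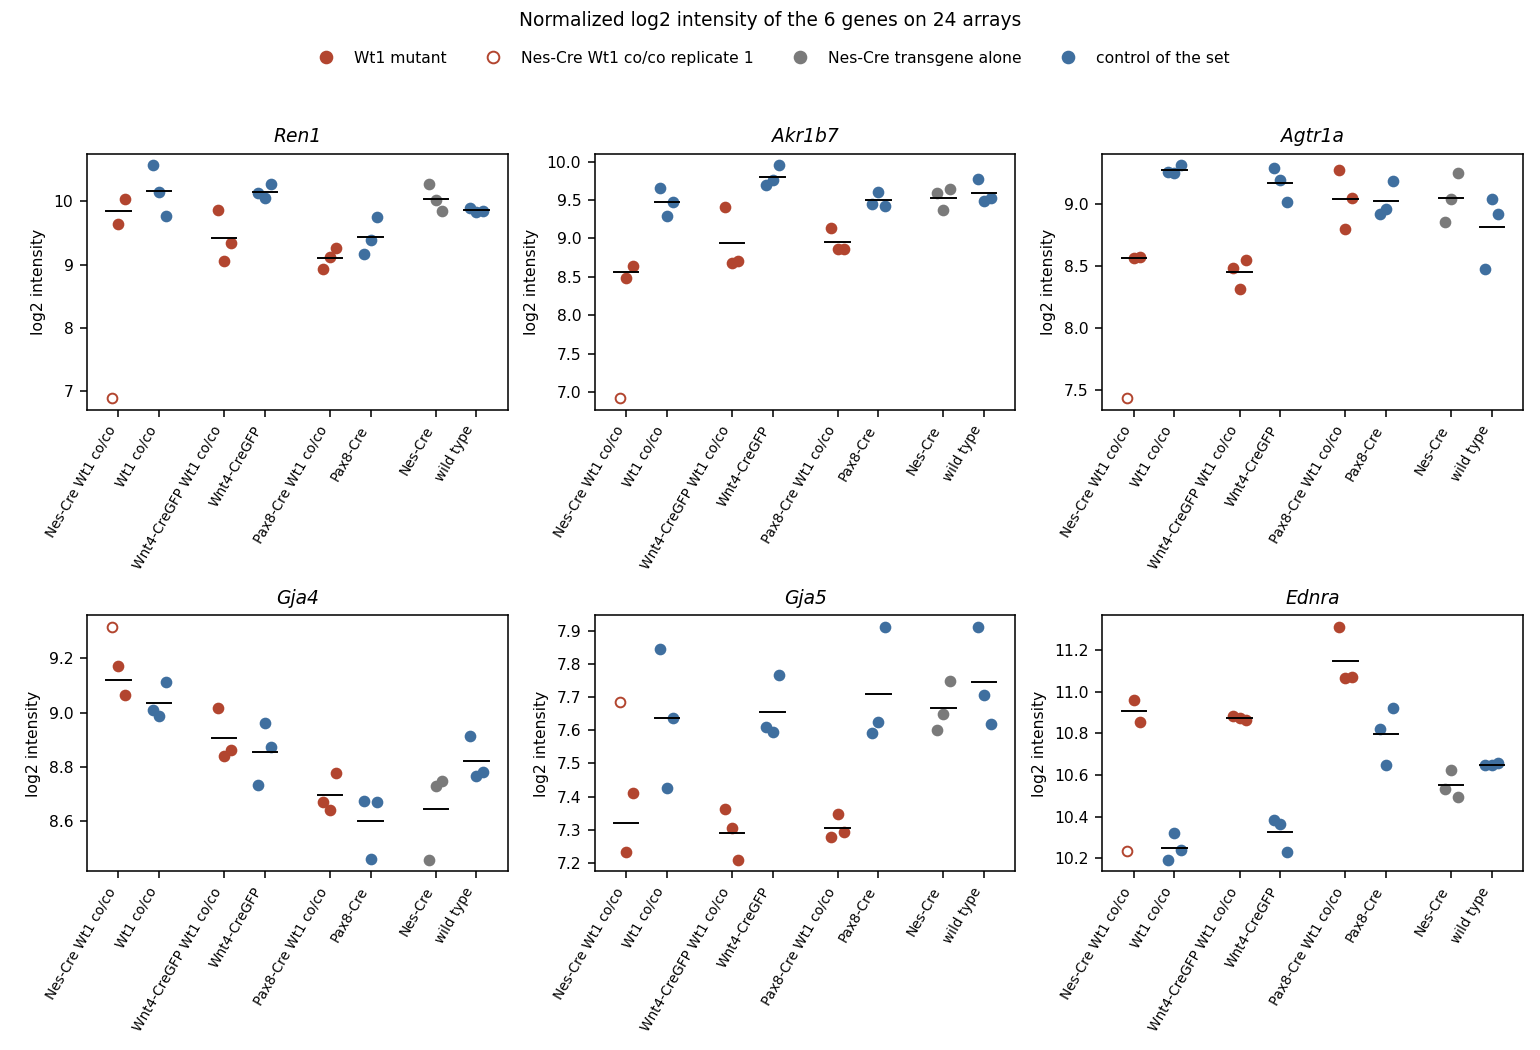
Normalized log2 intensity (vertical axes) of the 6 genes on each of the 24 arrays, in 8 groups with each mutant left of its control. Points are arrays, the hollow point is Nes-Cre mutant replicate 1, and black lines are group means without it. Akr1b7 lies between 6.92 and 9.41 on all 9 mutant arrays and between 9.29 and 9.95 on all 15 others.

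Akr1b7 encodes an aldo-keto reductase that marks renin cells in the mouse and is also made in the adrenal cortex. Its log2 intensity was 6.92, 8.48 and 8.64 in Nes-Cre mutants, against 9.66, 9.29 and 9.47 in Wt1 co/co kidneys. It was 9.41, 8.69 and 8.71 in Wnt4-CreGFP mutants, against 9.70, 9.76 and 9.95 in Wnt4-CreGFP kidneys. It was 9.14, 8.87 and 8.87 in Pax8-Cre mutants, against 9.45, 9.60 and 9.43 in Pax8-Cre kidneys. Every mutant array was below every control array of its set, and replicate 1 lay nearest to the controls in the Wnt4-CreGFP set and in the Pax8-Cre set. Over all genes tested, mutant and control arrays were separated, upwards or downwards, in 33.9%, 44.1% and 32.7% of genes in the 3 comparisons, and in 53.6% for Nes-Cre mutants without replicate 1. In Nes-Cre kidneys Akr1b7 read 9.59, 9.37 and 9.64, against 9.78, 9.49 and 9.52 in wild-type kidneys, and the groups overlapped.

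The change of Akr1b7 was -1.46 ± 0.30 (SE, adjusted p = 0.00229, n = 3 and 3) in Nes-Cre mutants, and -0.91 ± 0.18 (adjusted p = 0.00117, n = 2 and 3) without replicate 1, which is 1.88-fold lower. The Wnt4-CreGFP mutant stood at -0.87 ± 0.30 (adjusted p = 0.0589), with an SE of 0.16 and an adjusted p of 0.000599 without Nes-Cre mutant replicate 1. The Pax8-Cre mutant stood at -0.54 ± 0.30 (adjusted p = 0.370), or 1.45-fold lower, with an SE of 0.16 and an adjusted p of 0.0320 on 23 arrays, a call lost with the authors' ratio values (-0.28, adjusted p = 0.312). Percentile scaling called the Wnt4-CreGFP mutant on 24 arrays too (-0.99, adjusted p = 0.00288). Nes-Cre mutant replicate 1 did not detect Akr1b7 (a detection p of 0.0426). The arrays of these 2 comparisons are the same in both fits, and only the spread shared by all groups differs. In order of level all 5 control groups, at means of 9.47 to 9.80, came above all 3 mutants. Neighbouring control groups overlapped, and the lowest, Wt1 co/co, did not overlap the highest mutant, Pax8-Cre mutants at 8.96 ± 0.16 (SD, n = 3). Wnt4-CreGFP mutants followed at 8.94 ± 0.41, overlapping it, and Nes-Cre mutants without replicate 1 were lowest at 8.56 ± 0.11 (SD, n = 2), with no overlap. Across sets, Wnt4-CreGFP mutant replicate 1, at 9.41, lay above Wt1 co/co replicate 2 at 9.29 and Nes-Cre replicate 2 at 9.37.

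Since Akr1b7 is also an adrenal gene, adrenal markers were read on the same arrays. Of 15 adrenal genes, 8 were detected on no array, among them the steroidogenic genes Star, Cyp11a1, Cyp11b1 and Hsd3b1. The 3 that were detected often enough to be tested, Mc2r, Scarb1 and Pnmt, lay at 6.84 to 7.01 on every array, where the lowest value of the scale was 6.80, and their sum can therefore hardly vary. That sum was 365 to 372 in linear units in Nes-Cre mutants against 368 to 373 in Wt1 co/co kidneys.

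Ren1 encodes renin itself. It read 6.88, 9.65 and 10.04 in Nes-Cre mutants, against 10.57, 10.15 and 9.77 in Wt1 co/co kidneys. The first of these mutant arrays did not detect Ren1, and the other 2 lay within or just below the control range. In Wnt4-CreGFP mutants Ren1 was at 9.86, 9.05 and 9.35, against 10.13, 10.05 and 10.28 in Wnt4-CreGFP kidneys, with no overlap. In Pax8-Cre mutants it was at 8.94, 9.12 and 9.26, against 9.16, 9.39 and 9.76 in Pax8-Cre kidneys, and these groups overlapped. Nes-Cre kidneys read 10.27, 10.02 and 9.85, against 9.90, 9.84 and 9.84 in wild-type kidneys.

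The fitted change of Ren1 in Nes-Cre mutants was -1.31 ± 0.52 (SE, adjusted p = 0.0747), and -0.32 ± 0.24 (95% CI -0.82 to 0.18, adjusted p = 0.349) without replicate 1. The call depended on the scaling. Percentile scaling gave -1.32 (adjusted p = 0.0110) and, without replicate 1, -0.59 (adjusted p = 0.0240), while the authors' ratio values gave -1.78 (adjusted p = 0.0234) and -0.67 (adjusted p = 0.0535). In Wnt4-CreGFP mutants it was -0.73 ± 0.52 (adjusted p = 0.386), which is 1.66-fold lower and passed the test only with 23 arrays (SE 0.21, adjusted p = 0.0160). In Pax8-Cre mutants it was -0.33 ± 0.52 (adjusted p = 0.850), with a 95% CI of -0.78 to 0.11 and an adjusted p of 0.348 on 23 arrays. Ren1 varied widely within some groups, with an SD of 0.41 in Wnt4-CreGFP mutants and 0.40 in Wt1 co/co kidneys (n = 3 each). Group means without replicate 1 ran from 10.16 in Wt1 co/co down to 9.10 in Pax8-Cre mutants, and every neighbouring pair in that order overlapped. Pax8-Cre control kidneys, at 9.44 ± 0.30 (SD, n = 3), lay below the other 4 control groups (9.86 to 10.16), a difference between array sets that cannot be told apart from genotype. Some mouse strains carry Ren2, a near-identical copy of Ren1 that C57BL/6 mice lack, so on a mixed background the Ren1 probe may also read it. Ren2 was not analysed here.

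Agtr1a encodes the main angiotensin II receptor of the kidney, found on vascular smooth muscle, mesangium and tubules. It read 7.43, 8.56 and 8.57 in Nes-Cre mutants, against 9.26, 9.25 and 9.31 in Wt1 co/co kidneys. It read 8.48, 8.31 and 8.54 in Wnt4-CreGFP mutants, against 9.29, 9.19 and 9.01 in Wnt4-CreGFP kidneys. Neither pair overlapped. In Pax8-Cre mutants the values were 9.27, 8.80 and 9.05, against 8.92, 8.96 and 9.18 in Pax8-Cre kidneys, and the groups were interleaved. Nes-Cre kidneys had 8.86, 9.04 and 9.24, against 8.48, 9.04 and 8.92 in wild-type kidneys, with overlap.

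Agtr1a fell by 1.08 ± 0.23 on the log2 scale (SE, adjusted p = 0.00229) in Nes-Cre mutants and by 0.71 ± 0.16 without replicate 1 (adjusted p = 0.00302), which is 1.63-fold. It fell by 0.72 ± 0.23 in Wnt4-CreGFP mutants (adjusted p = 0.0366, 1.64-fold), and the adjusted p was 0.00103 on 23 arrays. The change was 0.02 ± 0.23 in Pax8-Cre mutants (adjusted p = 0.995), with a 95% CI of -0.28 to 0.31 on 23 arrays. The difference between the Nes-Cre and Pax8-Cre changes was -1.10 (95% CI -1.78 to -0.43, adjusted p = 0.0689), or -0.73 (95% CI -1.17 to -0.29, adjusted p = 0.0504) without replicate 1. That between the Wnt4-CreGFP and Pax8-Cre changes was -0.73 (95% CI -1.41 to -0.06, adjusted p = 0.414), with an adjusted p of 0.0588 and a 95% CI of -1.15 to -0.32 on 23 arrays. Neither difference passed the test, and the first also holds effects of Cre and of the conditional allele, since the controls differ in kind. Nes-Cre mutants (8.56 without replicate 1) and Wnt4-CreGFP mutants (8.45 ± 0.12) were the lowest groups, and their arrays did not overlap. From Wt1 co/co at 9.27 down to wild type at 8.81 the other 6 groups each overlapped the next, and 1 wild-type array, at 8.48, reached down to the Nes-Cre mutant.

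A list of kidney epithelium genes, from nephron progenitors to tubules and the ureteric bud, was read on the same arrays as Agtr1a. The 15 tested had a summed normalized intensity of 16605 to 17018 in Nes-Cre mutants without replicate 1 (2147 on that array), against 23264 to 24808 in Wt1 co/co kidneys. The sums were 15602 to 17997 in Wnt4-CreGFP mutants against 25573 to 28556 in Wnt4-CreGFP kidneys, and 16550 to 17542 in Pax8-Cre mutants against 25633 to 27628 in Pax8-Cre kidneys. On 24 arrays 6, 4 and 1 of the 15 fell in the 3 mutants and 0, 1 and 0 rose, and on 23 arrays 6, 6 and 5 fell and 1, 2 and 0 rose. Of all genes, 13.1%, 8.91% and 3.68% fell and 11.1%, 8.67% and 3.28% rose on 24 arrays. With 23 arrays, 12.3%, 12.3% and 6.26% of all genes fell and 14.3%, 14.8% and 7.19% rose. The sum is dominated by abundant genes such as Cdh16 and Slc34a1, which reached 13.40 and 13.51. The part of epithelial RNA in the change of Agtr1a was not tested.

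**Figure D2:**
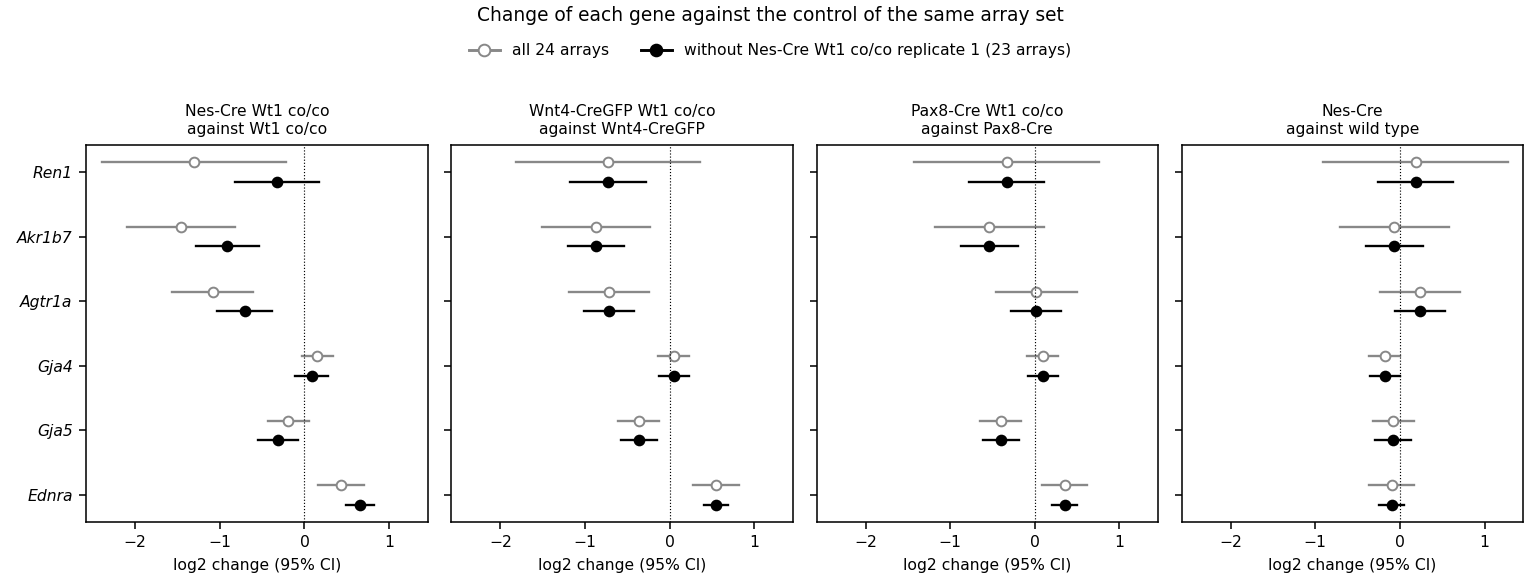
Log2 change of each gene with its 95% CI (horizontal axes), in 3 mutants against their own controls and in Nes-Cre against wild-type kidneys. Hollow grey points use all 24 arrays and black points 23 arrays; Ren1 in Nes-Cre mutants is at -1.31 on 24 and -0.32 on 23 arrays, while Ednra lies above 0 in all 3 mutants on both.

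Gja5 encodes a connexin of arterial endothelium that renin cells share. Its log2 intensity was 7.68, 7.23 and 7.41 in Nes-Cre mutants, against 7.84, 7.43 and 7.64 in Wt1 co/co kidneys. In the Wnt4-CreGFP set it was 7.36, 7.30 and 7.21 in the mutant, against 7.61, 7.59 and 7.76 in Wnt4-CreGFP kidneys. In the Pax8-Cre set it was 7.28, 7.35 and 7.29 in the mutant, against 7.59, 7.63 and 7.91 in Pax8-Cre kidneys. The last 2 mutants did not overlap their controls, and Nes-Cre mutants overlapped theirs only through replicate 1. Nes-Cre kidneys had 7.60, 7.65 and 7.75, against 7.91, 7.70 and 7.62 in wild-type kidneys, with overlap.

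Gja5 fell by 0.36 ± 0.12 in Wnt4-CreGFP mutants (SE, adjusted p = 0.0365) and by 0.40 ± 0.12 in Pax8-Cre mutants (adjusted p = 0.0427), with adjusted p of 0.0131 and 0.0142 on 23 arrays. The change in Nes-Cre mutants was -0.19 ± 0.12 (adjusted p = 0.234), and -0.31 ± 0.11 (adjusted p = 0.0504) without replicate 1. Neither of the mutant arrays left passed the detection limit for Gja5 (detection p of 0.0341 and 0.0215). Their intensities of 113 and 114 were nevertheless above backgrounds of 51.1 and 50.6. Of genes of like intensity, 88.9% and 87.4% were detected on these arrays. Gja5 lies near the floor of the normalized scale, whose lowest value was 6.80, and quantile normalization with an offset compresses changes there. In another version the background mean and spread were read at detection p of 0.5 and 0.16, with the offset and quantile normalization kept. The changes were then -0.72 in Wnt4-CreGFP and -0.74 in Pax8-Cre mutants. Percentile scaling ended the call in Wnt4-CreGFP mutants (-0.21, adjusted p = 0.390, and 0.338 on 23 arrays), and the authors' ratio values that in Pax8-Cre mutants on 24 arrays (-0.57, adjusted p = 0.0666, and 0.0320 on 23). Leaving out single arrays ended it in 6 of 7 and 5 of 7 cases. Among the groups with Gja5 detected on all 3 arrays, the controls Pax8-Cre, Wnt4-CreGFP and Wt1 co/co had means of 7.64 to 7.71 and overlapped in turn, and the Pax8-Cre and Wnt4-CreGFP mutants, at 7.31 and 7.29, overlapped each other and no control. Gja5 was detected on 16 of 24 arrays and on none of the 6 of the Nes-Cre and wild-type set, where its detection p was 0.11 to 0.16 at intensities of 308 to 385, although 88.1% to 90.6% of genes of like intensity were detected there.

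Gja4 encodes the other arterial connexin of this pair. It read 9.32, 9.17 and 9.07 in Nes-Cre mutants, against 9.01, 8.99 and 9.11 in Wt1 co/co kidneys. Wnt4-CreGFP mutants had 9.02, 8.84 and 8.86, against 8.73, 8.96 and 8.87 in Wnt4-CreGFP kidneys, and Pax8-Cre mutants had 8.67, 8.64 and 8.78, against 8.67, 8.46 and 8.67 in Pax8-Cre kidneys. All 3 pairs overlapped. The changes were 0.15 ± 0.09, 0.05 ± 0.09 and 0.10 ± 0.09 (SE, adjusted p = 0.226, 0.782 and 0.658), and on 23 arrays their 95% CIs ran from -0.11 to 0.28, from -0.13 to 0.22 and from -0.08 to 0.27. Under percentile scaling and with the authors' ratios the sign turned in the Nes-Cre and Wnt4-CreGFP mutants. Nes-Cre kidneys had 8.46, 8.73 and 8.75, all below 8.91, 8.77 and 8.78 in wild-type kidneys, a change of -0.18 ± 0.09 that was not called (adjusted p = 0.673), where the arrays of 17.6% of all genes were separated in either direction. Group means ran from 9.12 in Nes-Cre mutants without replicate 1 to 8.60 in Pax8-Cre kidneys, each neighbour overlapping the next, and a mutant and its control stood side by side in the Nes-Cre and Wnt4-CreGFP sets.

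Endothelial genes were read beside the connexins. Of 17 tested pan-endothelial genes, 5, 3 and 0 fell in the 3 mutants and none rose. Of the same 17 genes, 1, 8 and 3 fell on 23 arrays, and none rose. Among all genes, 13.1%, 8.91% and 3.68% fell and 11.1%, 8.67% and 3.28% rose. With 23 arrays, 12.3%, 12.3% and 6.26% of all genes fell and 14.3%, 14.8% and 7.19% rose. The median change of the 17 genes on 23 arrays was -0.10, -0.28 and -0.19, where that of all genes was 0.00, 0.02 and 0.01. Emcn, a sialomucin of capillaries and veins, had changes of -0.24, -0.38 and -0.32 on 23 arrays (adjusted p = 0.00338, 1.95e-05 and 0.000291). Cldn5, a tight junction protein, had -0.69 ± 0.18 in Wnt4-CreGFP mutants (adjusted p = 0.0126). The summed intensity of the 17 genes was 15082 to 15502 in Nes-Cre mutants without replicate 1 (9566 on that array) against 15514 to 16321 in Wt1 co/co kidneys. It was 13268 to 14339 in Wnt4-CreGFP mutants against 16106 to 17185 in Wnt4-CreGFP kidneys, and 12995 to 14727 in Pax8-Cre mutants against 16058 to 16967 in Pax8-Cre kidneys. A separate list of 15 arterial endothelial genes, Gja4 and Gja5 included, had 2, 1 and 1 lower and 1, 0 and 0 higher, and 1, 1 and 1 lower and 0, 2 and 1 higher on 23 arrays. Its summed intensity was 7738 to 7844 in Nes-Cre mutants without replicate 1 (10039 on that array) against 7502 to 7787 in Wt1 co/co kidneys. It was 7794 to 8482 in Wnt4-CreGFP mutants against 7411 to 7528 in Wnt4-CreGFP kidneys, and 8211 to 9431 in Pax8-Cre mutants against 7856 to 8893 in Pax8-Cre kidneys. The part of endothelial RNA in the lower Gja5 was not tested.

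Ednra encodes the endothelin receptor of vascular smooth muscle, mesangium and mesenchyme. It read 10.23, 10.96 and 10.86 in Nes-Cre mutants, against 10.19, 10.32 and 10.24 in Wt1 co/co kidneys. The Wnt4-CreGFP mutant had 10.88, 10.87 and 10.86, against 10.38, 10.36 and 10.23 in Wnt4-CreGFP kidneys. The Pax8-Cre mutant had 11.31, 11.07 and 11.07, against 10.82, 10.65 and 10.92 in Pax8-Cre kidneys. Replicate 1 of Nes-Cre mutants lay among the controls, and the other 8 mutant arrays were above every control array of their set. Nes-Cre kidneys had 10.53, 10.62 and 10.50, all below 10.65, 10.65 and 10.66 in wild-type kidneys, a change of -0.10 ± 0.13 (adjusted p = 0.988).

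Ednra rose by 0.43 ± 0.13 in Nes-Cre mutants (SE, adjusted p = 0.0201) and by 0.66 ± 0.08 (adjusted p = 1.48e-05, 1.58-fold) without replicate 1. It rose by 0.55 ± 0.13 in Wnt4-CreGFP mutants (adjusted p = 0.00607, 1.46-fold). In Pax8-Cre mutants the change was 0.35 ± 0.13 (adjusted p = 0.117), which passed only on 23 arrays (SE 0.07, adjusted p = 0.00238, 1.28-fold). Relative to the median of all genes the Nes-Cre mutant stood at 0.03 under percentile scaling (0.25 without replicate 1) and 0.22 with the authors' ratios, and the Wnt4-CreGFP mutant at 0.32 and 0.28. The call in Nes-Cre mutants was lost under both (changes of 0.26 and 0.03, adjusted p = 0.0809 and 0.917), and without replicate 1 it held under percentile scaling (0.47, adjusted p = 0.00283) but not with the ratios (0.20, adjusted p = 0.506). In Wnt4-CreGFP mutants the ratios ended it as well (0.15, adjusted p = 0.676, and 0.620 on 23 arrays), and in Pax8-Cre mutants they ended the call of 23 arrays (0.47, adjusted p = 0.117). With quantile normalization, leaving out single arrays of the comparison kept the call in the Wnt4-CreGFP mutant each time, and lost it in 3 of 6 cases in the Nes-Cre mutant. By level, Pax8-Cre mutants stood first at 11.15 ± 0.14 (SD, n = 3), followed by Nes-Cre mutants without replicate 1 at 10.91, Wnt4-CreGFP mutants at 10.87 and Pax8-Cre at 10.80, the last 3 overlapping in turn. Wild type (10.65), Nes-Cre (10.55), Wnt4-CreGFP (10.32) and Wt1 co/co (10.25) came below. Pax8-Cre kidneys overlapped wild type and Wnt4-CreGFP overlapped Wt1 co/co, while Nes-Cre overlapped neither wild type above it nor Wnt4-CreGFP below it. Control groups differed among themselves too, with Wt1 co/co at -0.40 ± 0.13 against wild type (adjusted p = 0.0311; 23.6% of all genes called, 33% on 23 arrays), and array set and genotype cannot be told apart there.

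Mesenchymal genes were read beside Ednra. Of 13 tested genes of the interstitial stroma, 5, 4 and 1 rose in the 3 mutants and none fell, and on 23 arrays 4, 9 and 1 rose. Of all genes, 11.1%, 8.67% and 3.28% rose on 24 arrays. With 23 arrays, 14.3%, 14.8% and 7.19% of all genes rose and 12.3%, 12.3% and 6.26% fell. The median change of the 13 stromal genes on 23 arrays was 0.20, 0.35 and -0.07. Fbln1, an extracellular matrix protein, rose by 1.07, 0.68 and 0.63 (adjusted p = 5.85e-05, 0.00275 and 0.0123). The summed intensity of the 13 genes was 13374 to 15749 in Nes-Cre mutants without replicate 1 (31421 on that array) against 11188 to 13318 in Wt1 co/co kidneys, and 13735 to 16581 in Wnt4-CreGFP mutants against 10285 to 12055 in Wnt4-CreGFP kidneys. In the Pax8-Cre set it was 11678 to 12437 in the mutant against 11629 to 13038 in the control. Of 19 tested contractile genes of smooth muscle, a cell type that carries Ednra, 3, 0 and 0 rose on 24 arrays, and on 23 arrays 4, 5 and 2 rose and 1 fell in each mutant, with a median of 0.03, 0.13 and 0.05. Acta2, smooth muscle actin, had changes of -0.06, 0.30 and 0.06 on 23 arrays (adjusted p = 0.774, 0.0471 and 0.813), and Tagln had -0.06, -0.07 and -0.10, none called. Pdgfrb, a receptor of pericytes and mesangium, was called in no mutant. The summed smooth muscle level was 23907 to 26333 in Nes-Cre mutants without replicate 1 (177766 on that array) against 23193 to 26517 in Wt1 co/co kidneys, 27330 to 35714 against 26519 to 27748 in the Wnt4-CreGFP set, and 27348 to 29300 against 26786 to 27870 in the Pax8-Cre set. The smooth muscle sum is dominated by abundant genes such as Myl6, Acta2 and Tpm1, whose lowest values were 12.72, 12.02 and 11.80. The part of stroma and smooth muscle in the higher Ednra was not tested.

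**Figure D3:**
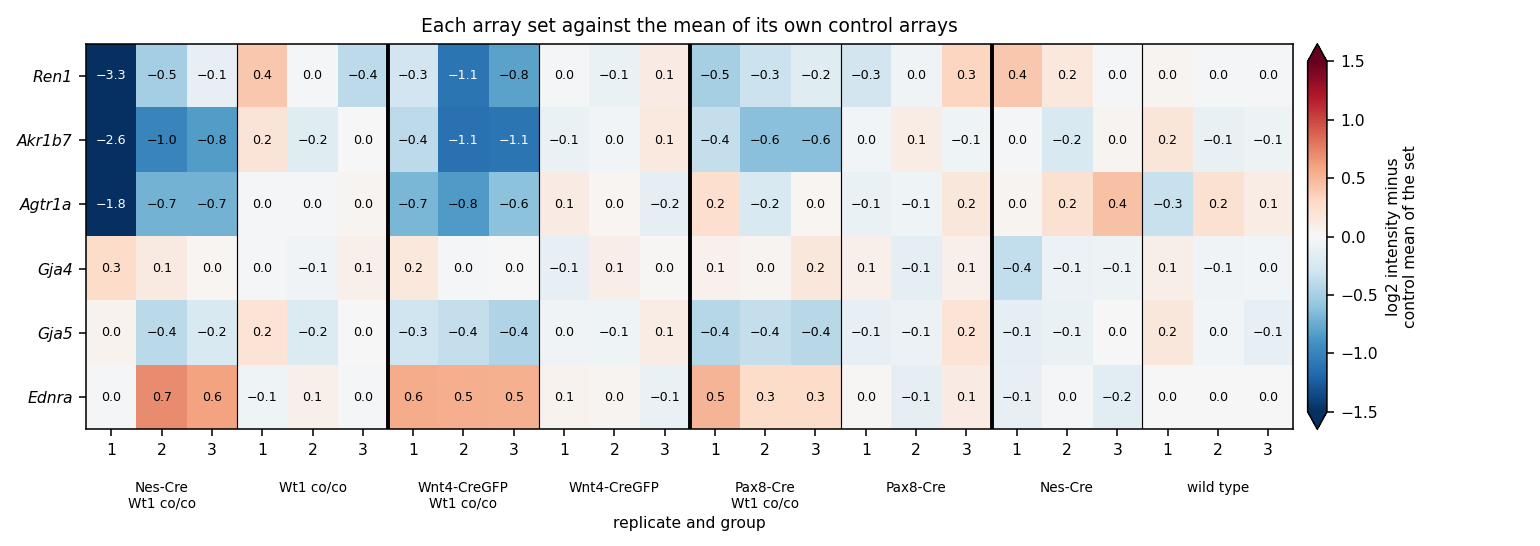
Log2 intensity of the 6 genes (rows) on 24 arrays (columns) minus the mean of the control arrays of the same set, with each mutant left of its control and the rounded difference printed in each cell. Colours saturate at 1.5 either way, Nes-Cre mutant replicate 1 is at -3.28 for Ren1, and the Akr1b7 row is below 0 on all 9 mutant arrays.

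The 3 mutants were then set against each other gene by gene, each as its change from its own control. These controls differ in kind, being Cre-negative with the conditional allele for Nes-Cre mutants and Cre-positive without it for the others. A difference that involves Nes-Cre mutants therefore also holds effects of Cre and of the allele. Such effects cannot be told apart from the step at which Wt1 was lost. None of the 6 genes was called in any of the 3 differences, on 24 or 23 arrays. Over all genes, 2.61% were called between Nes-Cre and Wnt4-CreGFP, 2.96% between Nes-Cre and Pax8-Cre and 0.463% between Wnt4-CreGFP and Pax8-Cre, and 4.2%, 5.73% and 2.39% on 23 arrays. For Akr1b7 without replicate 1, the difference was -0.04 (95% CI -0.54 to 0.46) between Nes-Cre and Wnt4-CreGFP and -0.38 (95% CI -0.88 to 0.12) between Nes-Cre and Pax8-Cre. For Ednra it was 0.11 (95% CI -0.11 to 0.33) and 0.30 (95% CI 0.09 to 0.52, adjusted p = 0.0938). These intervals leave room for differences as large as several of the changes themselves.

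The Nes-Cre transgene was also taken into account, as the change in Nes-Cre mutants against Wt1 co/co minus that in Nes-Cre against wild type. Akr1b7 differed by -1.39 ± 0.43 (SE, adjusted p = 0.0368) and Agtr1a by -1.32 ± 0.32 (adjusted p = 0.00989), and without replicate 1 by -0.85 ± 0.24 (adjusted p = 0.0165) and -0.94 ± 0.21 (adjusted p = 0.00394). Ednra differed by 0.53 ± 0.18 (adjusted p = 0.0538), and by 0.76 ± 0.10 (adjusted p = 0.000107) without replicate 1. In this comparison 6.89% of all genes were higher and 8.7% lower (15.6% called), and 12.5% and 10.4% without that array (22.8%). Ren1 and Gja4 were not called, at -0.50 and 0.26 without replicate 1, and neither was Gja5, which no array of the Nes-Cre and wild-type set detected.

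**Figure D4:**
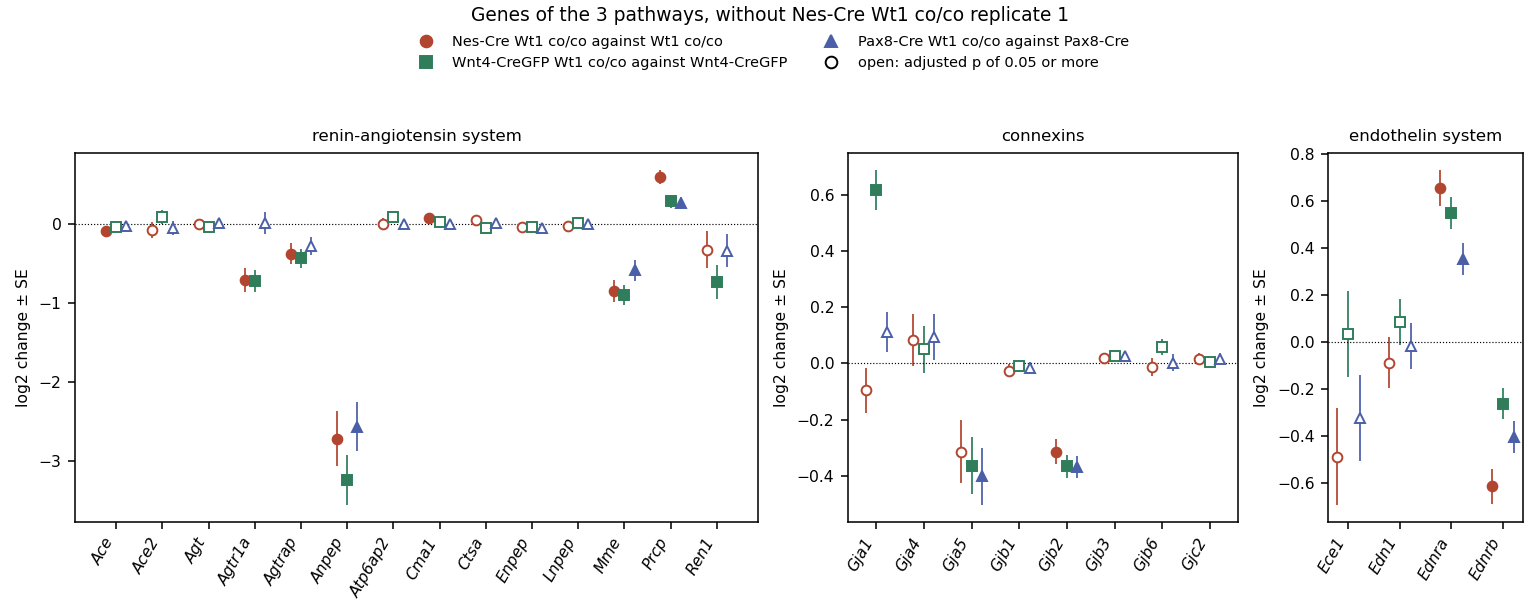
Log2 change ± SE (vertical axes) of the tested genes of the renin-angiotensin system, the connexins and the endothelin system in the 3 mutants, on 23 arrays, with filled symbols for genes called. Anpep, at -2.71, -3.24 and -2.56, and Mme are the lowest of the first panel, and Ednra is above 0 while Ednrb is below 0 in the third.

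The pathway around renin was followed through a list of 18 genes, of which 17 are in the table and 14 were tested. In the 3 mutants 5, 4 and 2 of the 14 fell and 1, 0 and 0 rose, and on 23 arrays 5, 5 and 2 fell and 2, 1 and 1 rose. Of all genes, 13.1%, 8.91% and 3.68% fell and 11.1%, 8.67% and 3.28% rose. With 23 arrays, 12.3%, 12.3% and 6.26% of all genes fell and 14.3%, 14.8% and 7.19% rose. The median change of the 14 genes was -0.12, -0.04 and -0.01, where that of all genes was 0.00, 0.02 and 0.01, and the Nes-Cre value was -0.05 without replicate 1. Agt, the substrate angiotensinogen, was near the floor at a mean of 6.91 and was not called, with changes of 0.00, -0.04 and 0.02. Ace, which makes angiotensin II, was at 6.88 in Nes-Cre mutants against 6.98 in Wt1 co/co kidneys (adjusted p = 0.00241), and no array of this mutant detected it. Anpep, an aminopeptidase of the proximal tubule brush border that trims angiotensins, fell in all 3 mutants, with log2 changes of -3.15 ± 0.37, -3.24 ± 0.37 and -2.56 ± 0.37 (adjusted p = 2.22e-05, 1.20e-05 and 0.000289). Mme, neprilysin, which degrades small peptides at the same border, fell too, with -1.02, -0.90 and -0.58 (adjusted p = 0.000146, 0.000496 and 0.0259). Agtrap, a protein that binds the type 1 receptor and promotes its internalisation, fell by 0.46 and 0.43 in the Nes-Cre and Wnt4-CreGFP mutants (adjusted p = 0.0115 and 0.0218) and had -0.28 in the Pax8-Cre mutant (adjusted p = 0.224). Prcp, a carboxypeptidase that inactivates angiotensin II, rose by 0.47 ± 0.10 in Nes-Cre mutants (adjusted p = 0.00258).

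Regulators of the renin cell gave 13 tested genes, Ren1 and Akr1b7 among them. On 24 arrays 1, 2 and 0 rose and 2, 0 and 0 fell in the 3 mutants, and on 23 arrays 1, 3 and 0 rose and 1, 2 and 1 fell. Their median change on 24 arrays was -0.04, 0.04 and 0.01, and -0.09 in the Nes-Cre mutant without replicate 1. Of all genes, 11.1%, 8.67% and 3.28% rose and 13.1%, 8.91% and 3.68% fell. With 23 arrays, 14.3%, 14.8% and 7.19% of all genes rose and 12.3%, 12.3% and 6.26% fell. Gnas, the stimulatory G protein through which cyclic AMP drives renin expression, rose by 0.70 ± 0.10 and 0.40 ± 0.10 in the Nes-Cre and Wnt4-CreGFP mutants (adjusted p = 7.88e-05 and 0.00792), with 0.13 in the Pax8-Cre mutant (adjusted p = 0.555). Ep300, a histone acetyltransferase required for renin cell identity, fell by 0.49 ± 0.15 in Nes-Cre mutants (adjusted p = 0.0209, and 0.0537 without replicate 1). Foxd1, which marks the stromal progenitors of renin cells and was chosen here after its value was seen, rose by 0.22 ± 0.07 in Wnt4-CreGFP mutants (adjusted p = 0.0446). It was near the floor at a mean of 7.07, and had -0.01 and -0.11 in the Nes-Cre and Pax8-Cre mutants (limma, adjusted p = 0.960 and 0.461).

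Of 8 tested connexins, 1, 2 and 2 fell and 0, 1 and 0 rose in the 3 mutants, and the counts were equal on 23 arrays. Their median change on 24 arrays was 0.04, 0.01 and 0.01, and the Nes-Cre value turned to -0.02 without replicate 1. Of all genes, 13.1%, 8.91% and 3.68% fell and 11.1%, 8.67% and 3.28% rose on 24 arrays. With 23 arrays, 12.3%, 12.3% and 6.26% of all genes fell and 14.3%, 14.8% and 7.19% rose. Gjb2, a connexin of epithelia, fell by 0.31, 0.37 and 0.37 (adjusted p = 4.03e-05, 5.22e-06 and 1.08e-05) at levels near the floor. Gja1, the widely expressed connexin of mesenchyme and endothelium, rose by 0.62 ± 0.19 in Wnt4-CreGFP mutants (adjusted p = 0.0336), with -0.47 in the Nes-Cre mutant (adjusted p = 0.0847, or -0.10 without replicate 1) and 0.11 in the Pax8-Cre mutant (adjusted p = 0.870). Of the 4 endothelin genes tested, Ednra included, 2, 0 and 1 fell and 1, 1 and 0 rose on 24 arrays, with a median change of -0.19 (-0.29 without replicate 1), 0.06 and -0.17. Ednrb, the receptor of endothelium and tubules, fell by 0.45 ± 0.10 in the Nes-Cre and 0.41 ± 0.10 in the Pax8-Cre mutant (adjusted p = 0.00403 and 0.0228), and had -0.26 in Wnt4-CreGFP mutants (adjusted p = 0.0890, and 0.00768 on 23 arrays). Edn1, the ligand, was called in no mutant, at 0.06, 0.08 and -0.02. Ece1, which cuts the ligand to its active form, fell by 0.88 ± 0.26 in Nes-Cre mutants (adjusted p = 0.0207), a call lost without replicate 1 (-0.49, adjusted p = 0.0905). Ednra and Ednrb thus had opposite signs in all 3 mutants.

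Genes with the most similar pattern were found by Pearson's r with each of the 6 genes over arrays, after the mean of each array set had been taken away; these points share array sets and normalization, and the values are a description. Over 24 arrays Ren1 was most like Spink3 (r = 0.954) and Emcn (0.941), and over 23 arrays like Eng (0.851) and Mcam (0.777). Akr1b7 was most like Tmem174 (0.939) and Hnf4a (0.932), and on 23 arrays like Fads3 (0.899) and Col4a2 (0.889). Agtr1a was most like Manba (0.941), Car4 (0.936) and Sucnr1 (0.923), and on 23 arrays Sucnr1 (0.903) came first. Gja5 was most like Ogdh on 24 arrays (0.874) and on 23 (0.878), and Gja4 like Ltc4s (0.832) and Il4i1 (0.822). Ednra was most like Scara3 on 24 arrays (0.954) and Krt23 on 23 (0.961). Among the 6 genes on 23 arrays, Akr1b7 had r = 0.83 with Gja5, 0.73 with Ren1 and -0.87 with Ednra, where 24 arrays gave 0.41, 0.89 and -0.40.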

How the data were processed

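Total RNA of whole kidneys at E18.5 was labelled and read on 1-colour BeadChips, with 24 arrays in all. The authors deposited linear bead intensities without background subtraction, a detection p-value per gene and array, and a second table of linear ratio values made in GeneSpring, each relative to the median of the 3 control arrays of a set. The sources used here give no gene coordinates, bead numbers or control probes. Array number, not read depth, limits the precision. In every group replicates 1 and 3 were exchanged between both tables (r of 0.9988 to 1 for the matched columns), and the numbering of the intensities was followed.

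Intensities were background-corrected from the detection p-values with an offset of 16, quantile-normalized and log2-transformed with neqc of limma 3.58.1 in R 4.3.3. Genes with a detection p under 0.01 on at least 3 arrays (57.8% of 17951) were fitted with 1 mean per group over all 24 arrays, and p-values were adjusted by Benjamini-Hochberg over the 10371 genes of each comparison. The fit had 16 residual and 1.32 prior degrees of freedom, and the median SE of a log2 change was 0.0800. Replicates are biological replicates by the methods, which do not say whether each is 1 embryo. Each mutant was set against the control of its own array set, so the main comparisons share no control arrays. Intervals are 95% intervals of the fit, and summed intensities are linear normalized values. The analysis was tested on simulated data. Figures were drawn with matplotlib 3.10.9 in Python 3.11.15.

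The 6 genes and the gene lists were chosen with earlier results of these data known. Up to 4 genes per list were named, those with the largest change among called genes whose groups did not overlap, along with Agt, Ace, Acta2, Tagln, Pdgfrb, Edn1, Ednrb and Gja1 whatever their values. Genes named for array quality were chosen after their values were seen.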

Additional observations from a re-analysis of the deposited data

Results flagged for a closer look

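A pair of results was singled out because the change on loss of Wt1 differed from the change that the Nes-Cre transgene gave alone. The test of that difference used the group means of the 12 arrays concerned and a spread shared by all 24 arrays. Akr1b7 differed by -1.39 on the log2 scale (limma, adjusted p = 0.0368), with -1.46 in Nes-Cre mutants against Wt1 co/co kidneys and -0.07 in Nes-Cre against wild-type kidneys. Agtr1a differed by -1.32 (limma, adjusted p = 0.00989), with -1.08 in Nes-Cre mutants against Wt1 co/co kidneys and 0.24 in Nes-Cre against wild-type kidneys. Without Nes-Cre mutant replicate 1, which did not detect Akr1b7 (a detection p of 0.0426), the differences were -0.85 for Akr1b7 (adjusted p = 0.0165) and -0.94 for Agtr1a (adjusted p = 0.00394), with -0.91 and -0.71 in Nes-Cre mutants. All 3 mutant arrays were below all 3 control arrays for both genes, and Nes-Cre and wild-type arrays overlapped.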

How the results depend on the processing

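Counts of called genes were 2511, 1823 and 722 in the Nes-Cre mutant, the Wnt4-CreGFP mutant and the Pax8-Cre mutant, 4 in Nes-Cre against wild type, 271, 307 and 48 for the differences Nes-Cre minus Wnt4-CreGFP, Nes-Cre minus Pax8-Cre and Wnt4-CreGFP minus Pax8-Cre, and 1617 for the difference from the transgene. Of the 6 genes 3, 3 and 1 were called. Values below keep that order, and counts within 1.5 times are left out. Without background correction, Nes-Cre against wild type gave 7. With the background taken at detection p 0.5 it gave 17, and Wnt4-CreGFP minus Pax8-Cre 24. Scaling to the 75th percentile gave 6346 and 734, differences of 63, 645 and 17, and 778 for the transgene. The authors' ratios gave 0 of the 6 genes in Pax8-Cre, 0 against wild type, 34 and 1878 for the first 2 differences and 968. Without the detection filter 1 and 0 of the 6 genes were called in Wnt4-CreGFP and Pax8-Cre, with 25 against wild type and 21 for the third difference. Array weights (0.0422 for Nes-Cre mutant replicate 1, up to 6.25, from an estimate that stopped before it converged) gave 3413 and 3417 with 5 and 3 of the 6 genes, then 18, 1152, 1647, 946 and 2514. Fitting only the arrays compared gave 33 with 0 of the 6 genes in Nes-Cre, then 29, 31, 192 and 784.

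Combinations without Nes-Cre mutant replicate 1, added after seeing the data, gave 2795 and 1229 with 5 and 3 of the 6 genes, 68, 523 and 252 with the background taken at 0.5. They gave 5809 and 1099 with 3 of the 6 genes in Pax8-Cre, 14, 104, 621, 144 and 973 with percentile scaling, and 0, 73, 1155, 396 and 943 with the ratios. Leaving out single arrays gave 1529 to 2949 (lowest without Wt1 co/co replicate 1), 1117 to 2805 (without Wnt4-CreGFP mutant replicate 1) and 348 to 1395 (without Pax8-Cre replicate 2), with 2 to 3, 1 to 5 and 0 to 3 of the 6 genes. The other counts then ran from 3 to 13, 115 to 674, 143 to 700, 8 to 248 and 1054 to 2369. Akr1b7 and Agtr1a stayed called in Nes-Cre mutants in all 6 such fits, while Agtr1a and Gja5 in Wnt4-CreGFP lost the call in 6 of 7 and Gja5 in Pax8-Cre in 5 of 7. Samples share only a replicate number (r of -0.334 to 0.0983 between like numbers), and the replicate block gave 0 genes in Nes-Cre and 240 in Pax8-Cre, with 0 of the 6 genes in each, then 2, 12, 19, 74 and 524.

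Signs turned in 20 of 498 alternatives for single genes, all where the change in the main fit was small, between -0.08 and 0.15. Gja4 in Nes-Cre was -0.14 and -0.25 with percentile and ratio values, and -0.22 and -0.31 without replicate 1. Gja4 in Wnt4-CreGFP was -0.061 and -0.27 with the same 2, with or without that array, -0.13 against Wt1 co/co, and -0.011 to 0.10 without single arrays, below 0 without replicate 1 of the control or of the mutant (-0.0060). Gja4 in Pax8-Cre was -0.34 against Wt1 co/co, which was not a small change, with arrays at 8.64 to 8.78 against 8.99 to 9.11. That comparison crosses array sets. Agtr1a in Pax8-Cre was -0.16 with weights, -0.23 against Wt1 co/co, and -0.098 to 0.14 without single arrays, below 0 without replicate 1 of the mutant, or replicate 1 (-0.032) or 2 (-0.014) of the control. In Nes-Cre against wild type, Akr1b7 ran from -0.12 to 0.024 and Gja5 from -0.14 to 0.0043 without single arrays, above 0 without wild type replicate 1 (Akr1b7 also without Nes-Cre replicate 2, 0.015). The cause of these changes was not tested.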

Other observations

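Other genes that set vascular tone were read through 31 tested receptors and signalling genes. On 23 arrays 4, 5 and 3 rose and 5, 6 and 4 fell in the 3 mutants, with a median change of -0.01, 0.00 and 0.01. Of all genes, 14.3%, 14.8% and 7.19% rose and 12.3%, 12.3% and 6.26% fell on these arrays. Npr2, the receptor of C-type natriuretic peptide, rose by 0.44 in the Nes-Cre and Wnt4-CreGFP mutants (limma, adjusted p = 0.000149 and 0.000160), with 0.12 in the Pax8-Cre mutant. In the Wnt4-CreGFP mutant Gucy1a3, a subunit of the nitric oxide receptor, rose by 0.60 (adjusted p = 0.0225) and Itpr1, a calcium release channel, fell by 0.36 (adjusted p = 0.0335). Of 17 tested mesangial and pericyte genes, 3, 5 and 3 rose and 2, 2 and 1 fell on 23 arrays. Thy1, a surface glycoprotein, rose by 0.46, 0.26 and 0.42 in the 3 mutants (adjusted p = 0.000731, 0.0370 and 0.00427), and Pdgfb, the growth factor that recruits mesangium, fell by 0.34 and 0.25 in the Nes-Cre and Wnt4-CreGFP mutants (adjusted p = 0.00632 and 0.0448).

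Of 11 tested podocyte genes, 6, 6 and 7 fell in the 3 mutants and none rose on 24 arrays, where 13.1%, 8.91% and 3.68% of all genes fell, and on 23 arrays 6, 6 and 7 fell and 1, 1 and 0 rose. Their summed intensity was 6045 to 6278 in Nes-Cre mutants without replicate 1 (4067 on that array) against 5654 to 6183 in Wt1 co/co kidneys, so that the sum was not lower there. It was 5772 to 6195 in Wnt4-CreGFP mutants against 6226 to 6700.3 in Wnt4-CreGFP kidneys, and 4766 to 5774 in Pax8-Cre mutants against 6016 to 6446 in Pax8-Cre kidneys. The podocyte sum is dominated by Tcf21, at 11.39 to 12.20 over all arrays, which is also on the list of mesangial and pericyte genes. Macrophage genes rose in Nes-Cre mutants, with 11 of 12 called on 24 arrays and 10 without replicate 1, while 1 was called in the Wnt4-CreGFP mutant and 0 in the Pax8-Cre mutant on 24 arrays, and 2 in each on 23. Of all genes, 11.1%, 8.67% and 3.28% rose in the 3 mutants on 24 arrays, and 14.3%, 14.8% and 7.19% on 23. C1qc, a complement subunit, rose in Nes-Cre mutants by 1.41 (limma, adjusted p = 2.37e-05). The summed macrophage intensity was 2873 to 3620 in Nes-Cre mutants without replicate 1, against 1996 to 2055 in Wt1 co/co kidneys. Of the 2 mutant arrays left, replicate 3 had high liver genes, with Ahsg at 11.19. The part of liver RNA in the higher macrophage genes was not tested.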
